A study of Mus musculus with 8 samples.

Results

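RNA-seq counts of p53, its target genes and the genes that carry out cell death were followed in mouse embryonic stem cells (mESCs) under 4 conditions: WT, UNC0642 treatment, Setdb1 KO, and Setdb1 KO with UNC0642 treatment. The 37 genes were taken by name from a list of known p53 targets and cell death genes, out of 24062 genes in the count tables. The rule used their names only, but the members were chosen with earlier results of these data known. All 37 were present, and 36 of them were among the 15313 genes with enough counts to be tested. The exception was Casp1, the inflammasome caspase, with 0 and 1 counts in the WT libraries, 0 and 2 with UNC0642, 9 and 4 in Setdb1 KO mESCs and 4 and 4 under the combined treatment.

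All 8 libraries came from a single mESC line with a conditional Setdb1 allele (#33-6), grown on gelatin in DMEM with FCS, KSR and LIF. WT mESCs received neither agent. UNC0642-treated mESCs received 2 µM UNC0642, an inhibitor of the H3K9 methyltransferases G9a and GLP, for 3 days. Setdb1 KO mESCs received 800 nM 4-OHT, which triggers deletion of Setdb1, for 5 days. The labels of UNC0642-treated Setdb1 KO mESCs give 800 nM 4-OHT for 2 days and then 2 µM UNC0642 for 3 days, while the study's methods give 1 duration of 4-OHT for Setdb1 KO mESCs, the longer one. As labelled, the KO conditions also differ in the time on 4-OHT, and no WT library received 4-OHT. Effects of 4-OHT itself and of the loss of Setdb1 cannot be told apart in these libraries. Each condition had 2 replicates, which the study describes as biological. RNA was measured from whole cultures, and fewer cells that express a gene and less of its RNA per cell cannot be told apart.

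p53 is a transcription factor that DNA damage and other stresses stabilise. It induces genes that stop the cell cycle, repair DNA, adjust metabolism or start apoptosis, and it also induces Mdm2, the ubiquitin ligase that degrades it. In mESCs it is abundant, and its activity is governed largely at the protein level, which RNA counts do not show. Death receptors and caspase-8 form a route to apoptosis that does not need p53, and the kinases Ripk1 and Ripk3 with the pore-forming effector Mlkl form a route to necroptosis when caspase-8 is inactive.

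The totals ran from 11702590 to 26807807 counts per library, and 3 counts, taken as the detection floor, corresponded to 0.108 to 0.311 CPM, the usual scaling of counts to the normalized total of a library. Setdb1 stood at 169 and 127 CPM in WT, 130 and 86.4 with UNC0642, 47.3 and 51.0 in Setdb1 KO and 61.1 and 34.1 under the combined treatment, so every KO library lay below every library without 4-OHT. Markers of mESCs were high in all libraries (summed 4012 to 6360 CPM for 8 genes), and none of the 8 was called. Summed markers of fibroblasts or feeder cells reached 24.0 CPM at most, those of trophoblast 69.7, those of endoderm and mesoderm 35.3 and those of neural cells 190, while blood markers stayed at or below 0.141 CPM with Hbb-bs at 0 in all libraries. In the combined condition over WT, fitted with the replicate number as a term, 2 of 6 tested fibroblast or feeder markers were called, in different directions, and 1 of 5 tested trophoblast markers was called lower, where 15.7% of all genes were called. Lum was higher (0 CPM in both WT libraries, 2.91 and 1.43 in the combined condition), Pdgfrb was lower (5.83 and 4.80 against 1.14 and 0.552) and so was Eomes (17.7 and 18.2 against 9.86 and 3.05). Their part in the results was not tested. Transposable elements took 2.77% to 5.46% of the counts in libraries without 4-OHT and 9.22% to 17.1% in those with it, and the part of this difference in the results was not tested. Same-numbered replicates deviated together across all genes, so each comparison is given from the fit without and with the replicate number as a term (the replicate block). A gene was called at an adjusted p under 0.05 in edgeR's quasi-likelihood test, adjusted by Benjamini-Hochberg over all genes and transposable element subfamilies tested. With the block Setdb1 itself was called lower than in WT in both KO conditions. Its log2 fold changes were -1.56 ± 0.275 (SE) in Setdb1 KO (adjusted p = 0.0164) and -1.67 ± 0.276 in the combined condition (adjusted p = 0.00593, edgeR). Without the block neither was called, at -1.59 ± 0.439 (adjusted p = 0.181) and -1.64 ± 0.440 (adjusted p = 0.0746, edgeR).

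Promoter sequences (RefSeq, GRCm38.p6) were at hand for 30 of the 37 genes, and none for Perp, Pmaip1, Rrm2b, Tnfrsf10b, Trp53inp1, Xpc and Zmat3. Each window held 250 bases before and 50 after a start site. The 10-letter p53 half-site consensus, which reads the same on both strands, occurred in 10 of 30 genes (33.3%): Trp53, Cdkn1a, Mdm2, Ccng1, Aen, Bax, Ei24, Gadd45a, Polk and Sesn1. It occurred in 9.55% of all 27025 genes with windows, and the median GC content was 60.8% in the windows of these 30 genes and 52.8% in all windows. Of the 12 genes that were called in any comparison with the replicate block, 10 had a window and 4 held a half-site (Cdkn1a, Mdm2, Ccng1 and Aen), against 6 of 20 among the other genes. A match describes only these letters in this window, and p53 can also act from sites outside it. The stretches of 250 bases before the start site are shown for 3 p53 targets that hold the half-site, in capitals. They are also shown for Plk2 and Casp8, the called genes with the largest fold changes over WT, whose windows hold none. The Casp8 window lies inside the gene, which begins at chr1:58795374, and no window was at hand for that outer end. The half-sites of Polk and Sesn1 also lie in windows inside the gene, and their outer windows hold none. A further Cdkn1a stretch (chr17:29093519-29093768, plus strand), before another start site, holds no half-site and is not shown. The Cdkn1a stretch shown (chr17:29090729-29090978, plus strand) has a pair of half-sites 12 bases apart, at -73 and -51 from its start. This arrangement, with a gap of at most 13 bases, was found in 0.074% of genes. The other stretches shown are Mdm2 (chr10:117710759-117711008, minus strand, half-site at -186), Ccng1 (chr11:40755287-40755536, minus strand, half-site at -185), Plk2 (chr13:110394794-110395043, plus strand) and Casp8 (chr1:58802252-58802501, plus strand).
Cdkn1a: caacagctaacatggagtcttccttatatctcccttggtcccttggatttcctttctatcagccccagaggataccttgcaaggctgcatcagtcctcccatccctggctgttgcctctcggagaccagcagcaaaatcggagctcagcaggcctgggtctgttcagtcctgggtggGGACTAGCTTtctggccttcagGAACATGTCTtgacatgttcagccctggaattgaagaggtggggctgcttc
Mdm2: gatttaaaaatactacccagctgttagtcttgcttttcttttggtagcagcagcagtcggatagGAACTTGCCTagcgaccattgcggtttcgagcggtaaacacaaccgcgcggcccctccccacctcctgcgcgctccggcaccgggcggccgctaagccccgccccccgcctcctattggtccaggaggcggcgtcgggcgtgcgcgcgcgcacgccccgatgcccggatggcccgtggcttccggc
Ccng1: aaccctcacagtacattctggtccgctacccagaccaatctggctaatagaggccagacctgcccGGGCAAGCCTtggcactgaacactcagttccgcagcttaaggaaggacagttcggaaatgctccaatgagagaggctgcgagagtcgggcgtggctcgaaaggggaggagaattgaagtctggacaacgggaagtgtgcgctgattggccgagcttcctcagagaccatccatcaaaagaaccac
Plk2: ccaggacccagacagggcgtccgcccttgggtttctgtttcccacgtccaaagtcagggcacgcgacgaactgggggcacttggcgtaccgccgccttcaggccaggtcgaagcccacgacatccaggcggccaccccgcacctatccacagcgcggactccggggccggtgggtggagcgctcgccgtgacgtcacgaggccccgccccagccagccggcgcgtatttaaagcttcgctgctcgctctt
Casp8: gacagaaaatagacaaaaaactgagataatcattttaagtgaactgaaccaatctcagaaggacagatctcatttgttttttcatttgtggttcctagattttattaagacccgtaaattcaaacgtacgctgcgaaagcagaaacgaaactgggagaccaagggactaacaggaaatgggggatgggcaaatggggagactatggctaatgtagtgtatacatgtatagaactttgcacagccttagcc

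In WT mESCs the median RNA level of the members, cell death genes included, lay above that of all tested genes. Per kilobase of exon, the median of 35 tested members with a known length was 11.1 CPM, against 3.64 CPM for 15147 tested genes. Mcl1, an anti-apoptotic BCL2 protein that keeps mESCs alive, had the highest WT level (270.6 CPM per kilobase), followed by Trp53 (80.7), Ccng1 (67.6) and Bax (54.2). Fas, a death receptor, was the lowest (0.165 CPM per kilobase), below Mlkl (0.622), Gdf15 (1.31) and Ripk1 (1.33). Mcl1 lay above the others in both WT libraries, while the WT libraries of Trp53, Ccng1 and Bax overlapped on this scale. Single members differed by several-fold between the replicates: Bax had 30.0 and 141 CPM in the WT libraries and Trp53 had 186 and 467.

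The combined treatment was compared with WT mESCs to ask what loss of both Setdb1 and G9a/GLP activity did to these genes. A core of p53 targets was higher: the feedback genes Mdm2, Ccng1 and Trp53inp1, the growth regulators Btg2 and Plk2, the stress gene Sesn2, and Phlda3, Aen and Eda2r of the apoptosis group, together with Casp8. Xpc, a DNA damage sensor of nucleotide excision repair, was lower. These 10 higher and 1 lower were called with the replicate block, where 15.7% of all tested genes were called, 8.09% higher and 7.63% lower. Without the block only Btg2 and Casp8 were called, both higher, where 3.62% of all genes were called and 3.08% were called higher. Leaving out any single library lowered the number of members called, and likewise the number of all genes called. The block calls rest largely on replicate 2 of UNC0642-treated Setdb1 KO mESCs: without that library 1 member (Plk2) was called and 428 genes in place of 2407, while 8 to 12 members were called without any other single library.

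No change of Trp53 itself was called. It stood at 186 and 467 CPM in WT mESCs, 203 and 320 with UNC0642, 296 and 287 in Setdb1 KO mESCs and 293 and 279 under the combined treatment (chr11:69580359-69591873). The WT libraries enclosed all 6 others, and the log2 fold change of the combined treatment over WT was -0.19 ± 0.503 (SE; adjusted p = 0.905 in edgeR). The negative regulator Mdm2 (chr10:117688875-117710758) had 207 and 140 CPM in WT, 171 and 118 with UNC0642, 252 and 209 in Setdb1 KO and 286 and 368 under the combined treatment. Both combined libraries lay above both WT libraries, with a log2 fold change of 0.91 ± 0.423 without the block (adjusted p = 0.299) and 0.95 ± 0.279 with it (adjusted p = 0.0489, edgeR).

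Ccng1 encodes cyclin G1, a p53 target that acts through the Mdm2 loop (chr11:40748552-40755311). Its levels were 329 and 146 CPM in WT, 248 and 95.1 with UNC0642, 428 and 343 in Setdb1 KO and 667 and 678 under the combined treatment. The order of the conditions was the same in both replicates, and the log2 fold change of the combined treatment was 1.5 ± 0.579 without the block (adjusted p = 0.207) and 1.65 ± 0.362 with it (adjusted p = 0.0188, edgeR). Trp53inp1, a nuclear cofactor that enhances p53 activity (chr4:11156431-11174379), rose from 391 and 135 CPM in WT to 1104 and 838 with the combined treatment, with 285 and 108 in UNC0642-treated and 598 and 443 in Setdb1 KO mESCs. All 4 KO libraries lay above all 4 libraries without 4-OHT, and the log2 fold change was 1.89 ± 0.647 (adjusted p = 0.157) and with the block 2.06 ± 0.344 (adjusted p = 0.00627, edgeR).

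Plk2 and Btg2 separated the KO libraries from all others. Plk2, a polo-like kinase of the p53 checkpoint response (chr13:110395046-110400844), had 29.5 and 18.7 CPM in WT, 30.4 and 12.3 with UNC0642, 56.5 and 43.5 in Setdb1 KO and 119 and 93.2 under the combined treatment. The KO libraries all lay above those without 4-OHT, at a log2 fold change of 2.14 ± 0.516 for the combined treatment (adjusted p = 0.0537) and 2.17 ± 0.296 with the block (adjusted p = 0.00254, edgeR). Btg2, an anti-proliferative gene that promotes mRNA deadenylation (chr1:134075170-134079120), went from 14.3 and 15.8 CPM in WT to 40.7 and 64.1 CPM, with 14.01 and 12.8 in UNC0642-treated and 23.7 and 28.9 in Setdb1 KO mESCs. Its log2 fold change was 1.80 ± 0.422 (adjusted p = 0.0488) and 1.78 ± 0.282 with the block (adjusted p = 0.00491, edgeR).

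Cdkn1a encodes p21, the CDK inhibitor that arrests the cell cycle (chr17:29090976-29100727), and is the best known of the targets. It stood at 45.5 and 33.1 CPM in WT, 28.9 and 14.9 with UNC0642, 44.2 and 87.0 in Setdb1 KO and 68.1 and 143 under the combined treatment. Both combined libraries lay above both WT libraries, but the log2 fold change of 1.43 ± 0.547 did not pass the test (adjusted p = 0.205; with the block 1.39 ± 0.491, adjusted p = 0.0853, edgeR). Zmat3, an RNA-binding growth regulator, Gadd45a, a stress sensor of DNA damage, and Plk3 did not pass it either. Zmat3 had 141 and 116 CPM in WT, 100.2 and 55.1 with UNC0642, 116 and 122 in Setdb1 KO and 128 and 100.6 in the combined condition (log2 fold change of the last over WT -0.17 ± 0.412). Gadd45a had 54.9 and 49.8 CPM in WT, 55.5 and 62.6 with UNC0642, 111 and 63.95 in Setdb1 KO and 47.1 and 104 in the combined condition (0.53 ± 0.472). Plk3, a polo-like kinase related to Plk2, had 29.0 and 60.45 CPM against 43.9 and 57.3. Gadd45a shares 19.1% of its exon bases with an antisense gene, and whether the counting used strand is not given in the sources used here.

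**Figure D1:**
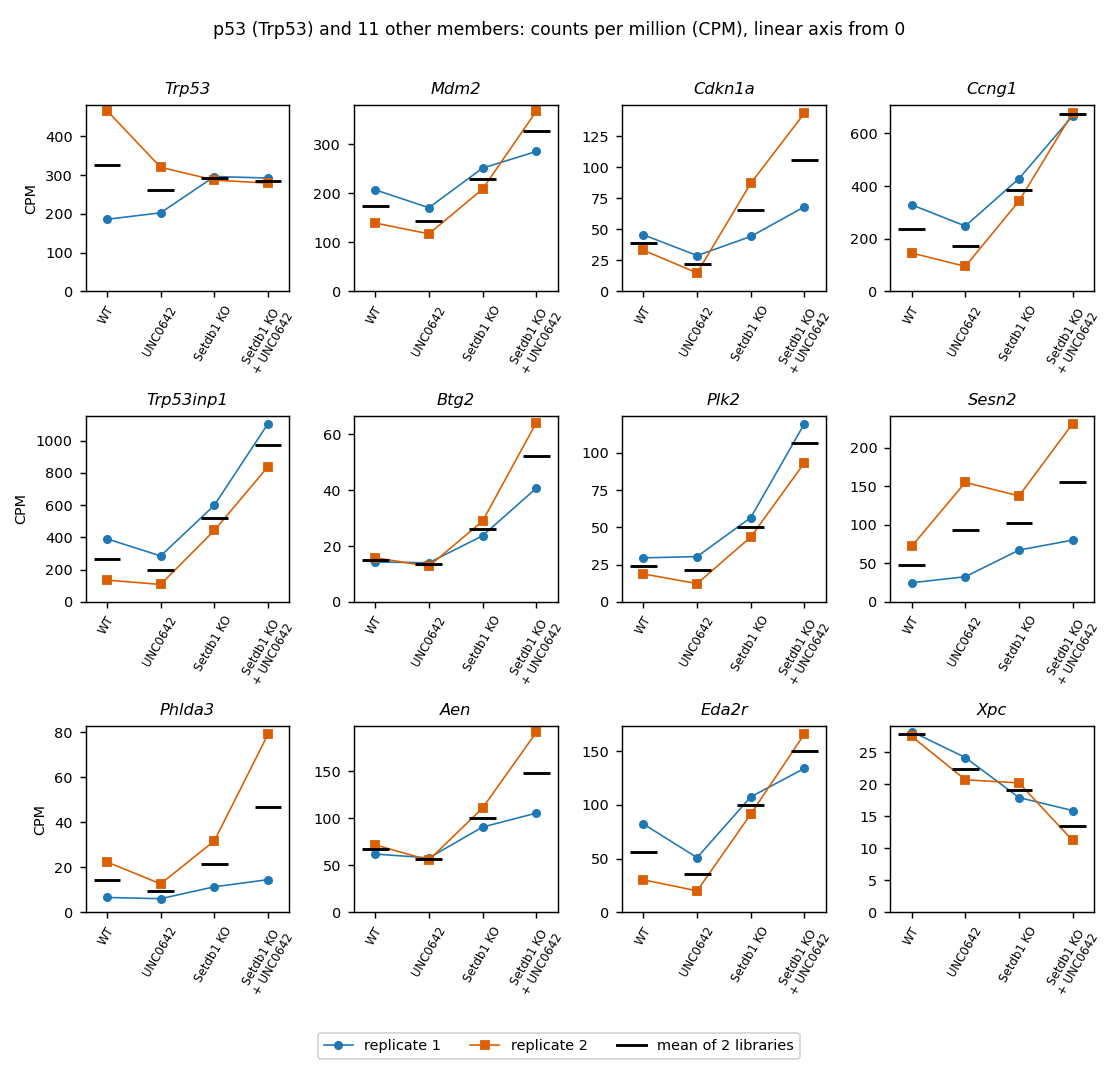
CPM (linear vertical axes from 0) of Trp53 and 11 other members by condition, with replicate 1 as circles, replicate 2 as squares, lines joining same-numbered libraries and black bars for the mean of 2 libraries. Ccng1, Trp53inp1, Btg2 and Plk2 were highest in both UNC0642-treated Setdb1 KO libraries, Xpc was lowest there, and the 2 WT libraries of Trp53 enclosed all others.

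Of the stress and metabolic targets 1 was called, and others differed in direction between the replicates. Sesn2, a stress-induced inhibitor of mTORC1 signalling (chr4:132492032-132510501), had 24.8 and 72.2 CPM in WT, 32.7 and 155 with UNC0642, 67.3 and 138 in Setdb1 KO and 80.2 and 232 under the combined treatment. Replicate 2 was the higher one in all 4 conditions, and within each replicate number the combined treatment gave the highest level. Its log2 fold change over WT was 1.68 ± 0.836 (adjusted p = 0.337), and 1.69 ± 0.304 with the block (adjusted p = 0.00869, edgeR). Ddit4, another inhibitor of mTORC1 signalling, Ddit3, the transcription factor CHOP of the unfolded protein response, and Gdf15, a secreted stress cytokine, had opposite directions in the replicates. Ddit4 had 98.8, 67.3, 47.5 and 38.0 CPM in WT, UNC0642, Setdb1 KO and the combined condition of replicate 1, and 55.1, 105, 242 and 296 CPM in the same order in replicate 2 (log2 fold change of the combined treatment over WT 1.12 ± 0.935). Ddit3 had 15.2, 9.03, 11.3 and 7.27 CPM in replicate 1 and 6.03, 38.3, 27.5 and 33.7 in replicate 2 (0.97 ± 0.898). Both genes were thus lowest with the combined treatment in replicate 1, and in replicate 2 lowest in WT. Gdf15 had 0.871 and 3.97 CPM in WT, 0.517 and 12.5 with UNC0642, 0.466 and 9.19 in Setdb1 KO and 0.104 and 19.0 in the combined condition. Replicate 1 of the combined condition held 1 count of it. Sesn1, a relative of Sesn2, had 63.7 and 50.05 CPM in WT and 45.6 and 40.2 in the combined condition and was not called.

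Among the p53-linked apoptosis genes, Eda2r, a TNF receptor family member (chrX:97333840-97377216), had 82.1 and 30.3 CPM in WT, 50.9 and 19.97 with UNC0642, 107 and 91.4 in Setdb1 KO and 134 and 166 under the combined treatment. All KO libraries lay above all libraries without 4-OHT, and the log2 fold change of the combined treatment was 1.42 ± 0.582 (adjusted p = 0.238; with the block 1.62 ± 0.432, adjusted p = 0.0365, edgeR). Aen, a p53-induced nuclease of apoptosis (chr7:78895854-78911209), had 61.9 and 71.7 CPM in WT, 57.8 and 55.5 with UNC0642, 90.6 and 111 in Setdb1 KO and 105 and 191 in the combined condition. Its KO libraries also lay above the other 4, at a log2 fold change of 1.15 ± 0.410 (adjusted p = 0.172; with the block 1.12 ± 0.267, adjusted p = 0.0254, edgeR). Phlda3, an inhibitor of Akt signalling (chr1:135766119-135769136), had 6.62 and 22.4 CPM in WT and 14.5 and 79.2 CPM in the combined condition, with 6.06 and 12.7 in UNC0642-treated and 11.3 and 31.8 in Setdb1 KO mESCs. The WT and combined libraries overlapped, replicate 2 was higher in every condition, and the log2 fold change was 1.69 ± 0.893 (adjusted p = 0.373; with the block 1.54 ± 0.353, adjusted p = 0.0220, edgeR).

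The best known direct effectors of p53-dependent apoptosis were not called. Bbc3 (PUMA) stood at 6.62 and 14.2 CPM in WT and 3.74 and 35.3 in the combined condition, Pmaip1 (NOXA) at 103 and 51.4 against 141 and 70.6 (90.5 and 39.4 with UNC0642, 192 and 71.7 in Setdb1 KO), and Bax, the pore-forming protein of mitochondria, at 30.0 and 141 against 31.5 and 239. Their libraries overlapped between the conditions. Fas was counted 7 and 2 times in WT, 3 and 2 times with UNC0642, 3 and 4 times in Setdb1 KO and 4 and 33 times under the combined treatment, and the single library above 1 CPM was replicate 2 of the combined condition (1.21). The death receptor Tnfrsf10b had 101.02 and 76.3 CPM in WT, 56.9 and 70.4 with UNC0642, 110.1 and 89.4 in Setdb1 KO and 113 and 104 in the combined condition. Perp, a membrane protein of cell adhesion and apoptosis, had 26.9 and 42.4 CPM in WT, 24.7 and 18.7 with UNC0642, 56.9 and 31.2 in Setdb1 KO and 38.2 and 47.9 in the combined condition. Both were lower with UNC0642 than in WT in either replicate, and neither was called in any comparison. Ei24, a membrane protein of the endoplasmic reticulum, had 195 and 124 CPM in WT, 175 and 91.4 with UNC0642, 188 and 164 in Setdb1 KO and 218 and 262 in the combined condition. Apaf1, the scaffold of the apoptosome, had 137 and 63.2 CPM in WT and 115 and 66.9 in the combined condition. The log2 fold changes of the combined treatment over WT were 0.30 ± 0.370 for Tnfrsf10b, 0.31 ± 0.452 for Perp, 0.59 ± 0.452 for Ei24 and 0.46 ± 0.636 for Pmaip1, none of them called.

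No DNA repair gene was called higher, and Xpc was called lower with the block. Xpc (chr6:91489305-91515888) had 28.2 and 27.5 CPM in WT, 24.2 and 20.7 with UNC0642, 17.9 and 20.2 in Setdb1 KO and 15.9 and 11.2 under the combined treatment. Every treated library lay below both WT libraries, with a log2 fold change of -1.04 ± 0.416 for the combined treatment (adjusted p = 0.225; with the block -1.06 ± 0.279, adjusted p = 0.0352, edgeR). Rrm2b, the p53-induced subunit of ribonucleotide reductase, had 36.6 and 8.01 CPM in WT and 13.7 and 20.96 in the combined condition, and Polk, a translesion DNA polymerase, had 49.8 and 20.6 against 46.0 and 40.6. Neither was called.

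Of the cell death machinery, Casp8 had the largest called change. The initiator caspase of death receptors (chr1:58795374-58847503) had 7.58 and 7.04 CPM in WT, 5.22 and 6.69 with UNC0642, 48.4 and 22.45 in Setdb1 KO and 35.3 and 28.4 under the combined treatment. The KO libraries were at least at 22.45 CPM and the others at most at 7.58. The log2 fold change of the combined treatment was 2.12 ± 0.502 (adjusted p = 0.0497; with the block 2.11 ± 0.372, adjusted p = 0.00800, edgeR). Its neighbour on chromosome 1, Cflar (chr1:58711508-58758884), which encodes the Casp8 inhibitor FLIP, was called higher with the block in the combined condition, at 36.2 and 41.7 CPM in WT and 100 and 71.7 CPM there. Ripk1, the kinase adaptor of death receptors, and Ripk3, the kinase of necroptosis, were not called at log2 fold changes of 1.35 ± 0.653 (adjusted p = 0.321) and 0.95 ± 0.489 (adjusted p = 0.360, edgeR). Ripk1 had 9.23 and 12.9 CPM in WT, 20.8 and 11.7 with UNC0642, 31.6 and 10.8 in Setdb1 KO and 40.2 and 16.7 with the combined treatment. Ripk3 had 14.7 and 18.6 CPM in WT, 14.995 and 24.7 with UNC0642, 30.4 and 28.8 in Setdb1 KO and 43.4 and 20.9 with the combined treatment. For both the combined libraries lay above both WT libraries. Mlkl had 2.18 and 0.686 CPM in WT, 1.32 and 0.432 with UNC0642, 1.52 and 1.596 in Setdb1 KO and 0.727 and 0.404 with the combined treatment (log2 fold change over WT -1.35 ± 0.897, adjusted p = 0.498 in edgeR). Bcl2l11 (BIM), Bcl2l1 (BCL-XL) and Mcl1, which set the balance of pro- and anti-apoptotic BCL2 proteins, did not pass the test either, and Bcl2l11 differed in direction between the replicates, with 28.4 CPM in WT and 59.2 with the combined treatment in replicate 1 and 26.7 and 13.2 in replicate 2. Over the 8 libraries Bcl2l1 ran from 13.1 to 41.3 CPM and Mcl1 from 575 to 1248 CPM.

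**Figure D2:**
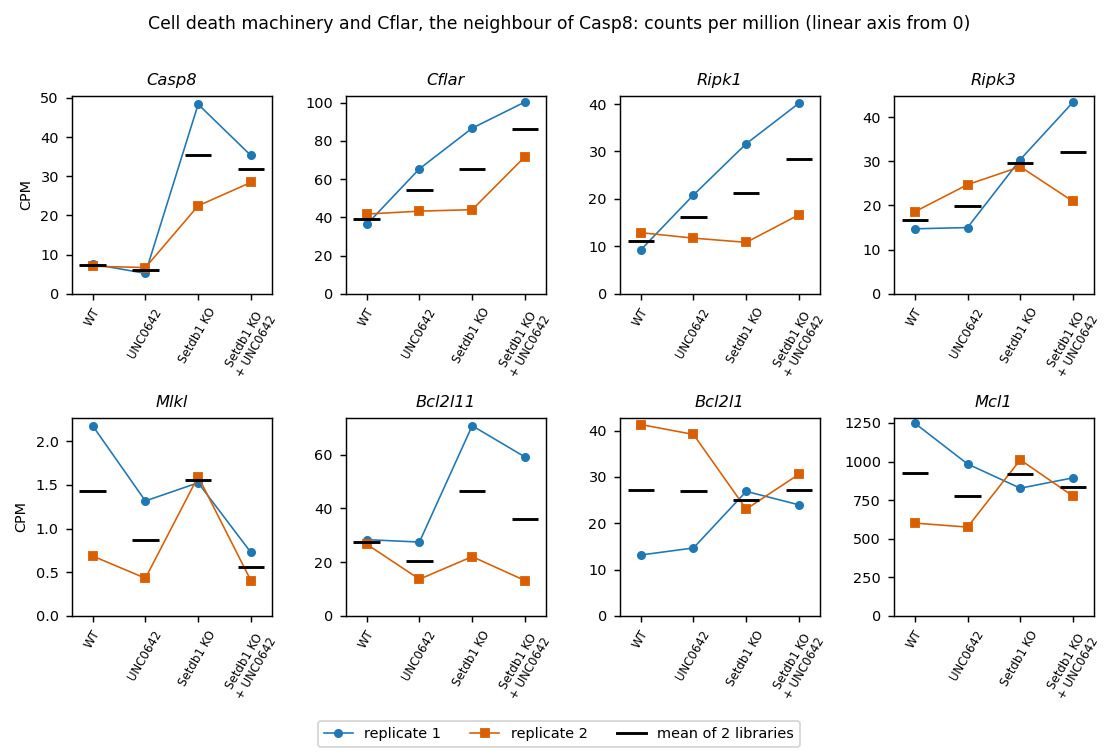
CPM (linear vertical axes from 0) of 7 cell death genes and of Cflar, the neighbour of Casp8, by condition, with replicate 1 as circles, replicate 2 as squares, lines joining same-numbered libraries and black bars for the mean of 2 libraries. Casp8 separated KO libraries (22.45 CPM or more) from the rest (7.58 CPM or less), whereas the replicates of Bcl2l11, Bcl2l1 and Ripk1 differed within conditions.

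Loss of Setdb1 alone was compared with WT mESCs. Casp8 was called with the block, at a log2 fold change of 2.22 ± 0.375 (adjusted p = 0.0130 in edgeR), and not without it (2.28 ± 0.504, adjusted p = 0.0821). It was the single member called, where 3.32% of all genes were called, 2.8% higher, and no member was called without the block, where 0.888% of genes were. The call with the block was lost without replicate 1 of Setdb1 KO mESCs, and without replicate 1 of WT mESCs Ddit3 and Trp53inp1 were called as well. Plk2 had a log2 fold change of 1.08 ± 0.288 with the block (adjusted p = 0.0823, edgeR) and Sesn2 had 1.21 ± 0.301 (adjusted p = 0.0639), neither passing the test. Of 36 members, 14 were higher in both same-numbered replicates and 4 were lower in both, against 25.1% and 29% of all genes. At an unadjusted p under 0.05, 1 member passed without the block and 6 with it, all higher. Of all genes 7.58% passed without the block and 15.8% with it.

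UNC0642 alone gave no call among the members, with or without the block, where 0% and 0.176% of all genes were called, 0 and 27 genes. At an unadjusted p under 0.05, none passed without the block and 4 with it (Sesn2 higher, Zmat3, Apaf1 and Bbc3 lower). Of all genes 3.41% passed without the block and 8.33% with it. DESeq2 called none of the members, and 110 genes on all 8 libraries. By direction alone, 25 of 36 members were lower in both same-numbered replicates and 3 were higher in both, against 32.5% and 26.3% of all genes, and the median log2 fold change was -0.30 over the members and -0.04 over all genes. Of 11 tested genes of the apoptosis group, 10 were lower in both replicates, none with an adjusted p under 0.05. The other is Fas, which had 2 counts in replicate 2 of both conditions, under the detection floor, and is counted among the 25 only through the scaling of the libraries. Cdkn1a stood at 45.5 CPM in WT and 28.9 with UNC0642 in replicate 1, and at 33.1 and 14.9 in replicate 2, a log2 difference of -0.85 ± 0.541 that did not pass the test (adjusted p = 1.00 in edgeR).

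UNC0642 was also set against its absence within KO mESCs. As labelled, these conditions also differed in time on 4-OHT (5 days without and 2 days with UNC0642). The 2 differences cannot be told apart here. No member was called when Setdb1 KO mESCs with and without UNC0642 were compared, with or without the block, where 0% and 0.124% of genes were called. Of 36 members, 17 were higher in both same-numbered replicates and 7 were lower in both, against 26.9% and 34.2% of all genes. Btg2 had the smallest unadjusted p without the block, at a log2 fold change of 1.00 ± 0.412 (adjusted p = 1.00 in edgeR). It stood at 23.7 CPM without and 40.7 with UNC0642 in replicate 1 and at 28.9 and 64.1 in replicate 2, and Plk2 stood at 56.5 and 119 in replicate 1 and at 43.5 and 93.2 in replicate 2. Over WT mESCs, 18 of 36 members were higher in both replicates under the combined treatment and 4 were lower in both, against 29.2% and 35.3% of genes. This comparison and the one of UNC0642 with WT share the WT libraries, so they are not independent of one another.

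The effect of Setdb1 loss in the presence of UNC0642 was tested by comparing the combined condition with UNC0642-treated mESCs, which has the same 3 days of UNC0642 on both sides. With the block 10 members were called, all higher: Cdkn1a, Mdm2, Ccng1, Trp53inp1, Btg2, Plk2, Phlda3, Aen, Eda2r and Casp8. Of all genes 3.79% were called in this fit and 2.91% were called higher. No member was called without the block, where 0.908% of genes were. Without it 11 members had an unadjusted p under 0.05, all higher, as did 8.23% of all genes in either direction. DESeq2 on all 8 libraries called 7 members and 461 genes. Cdkn1a was 28.9 and 14.9 CPM with UNC0642 and 68.1 and 143 in the combined condition, a log2 fold change of 2.27 ± 0.562 without the block (adjusted p = 0.118) and 2.22 ± 0.507 with it (adjusted p = 0.0455, edgeR). In same-numbered replicates 22 of 36 members were higher in both and 3 lower in both, against 27% and 36% of genes, and the 22 include all 11 of the apoptosis group. Most of the 10 calls were lost without replicate 2 of the combined condition, or without either replicate of UNC0642-treated mESCs. Most calls over all genes were lost in the same fits.

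Differences with UNC0642 had opposite signs in WT and in Setdb1 KO mESCs for many members, though no member was called in either comparison. As labelled, the KO conditions also differed in time on 4-OHT. Of 36, 14 were lower with UNC0642 in both WT replicates and higher in both KO replicates, a pattern that 3.6% of all genes had, and none was higher in WT and lower in KO, a pattern of 3.73% of genes. The 14 are Aen, Bax, Btg2, Ccng1, Cdkn1a, Eda2r, Ei24, Fas, Mdm2, Phlda3, Plk3, Polk, Tnfrsf10b and Trp53inp1. Fas is among them by the same 2 counts on each side in replicate 2 of WT and UNC0642-treated mESCs, which is no difference in counts. Others met the pattern by a small log2 difference in 1 replicate. These include Btg2 (-0.028 in WT, replicate 1), Plk3 (0.034 in KO, replicate 2) and Tnfrsf10b (0.040 in KO, replicate 1). Trp53 was not among the 14. The interaction of the 2 treatments was not called for any member, with or without the block, nor for any gene (0% and 0%), and 119 genes without and 368 with the block had an unadjusted p under 0.05. For the members the count was 0 without the block and 6 with it.

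**Figure D3:**
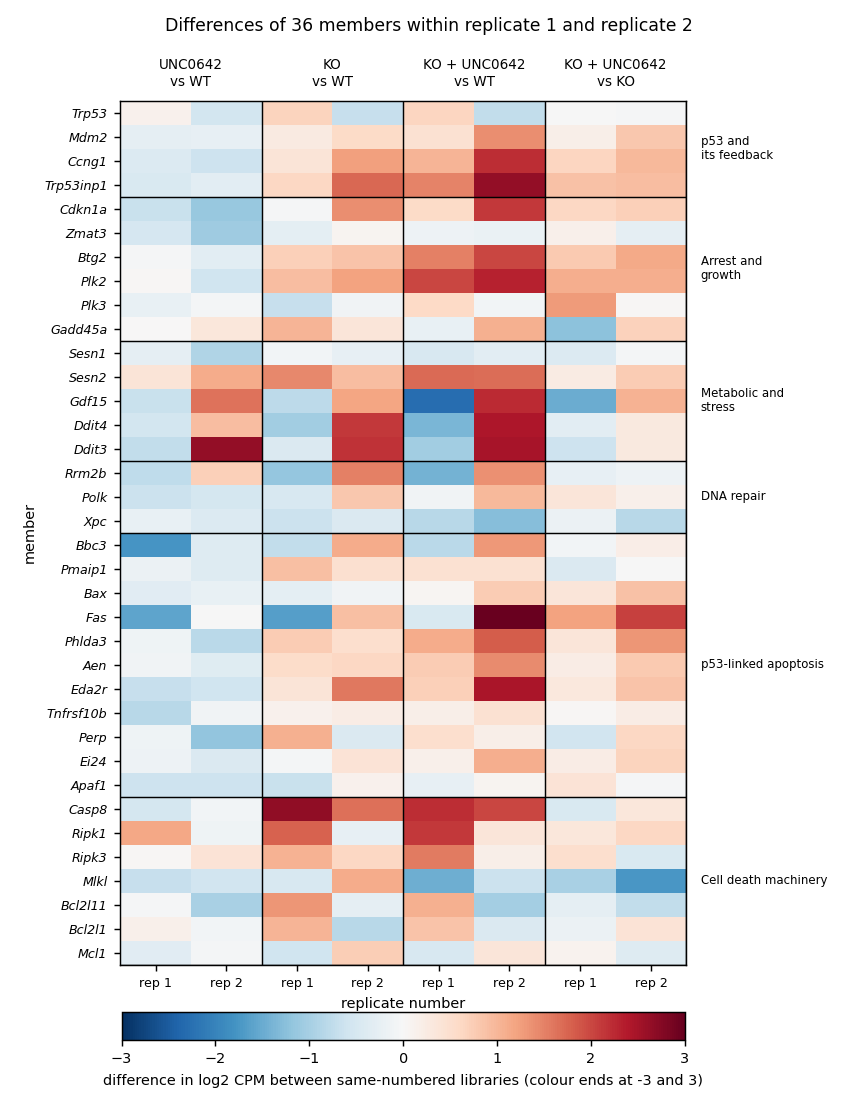
Differences in log2 CPM between same-numbered libraries (colour, blue lower and red higher, ends at -3 and 3) of 36 members, in rows by role, for 4 comparisons with replicates 1 and 2 in neighbouring columns. In UNC0642 against WT 25 members were lower in both replicates, and in the combined treatment against WT 18 were higher in both, while Ddit4, Ddit3 and Gdf15 differed in sign between the replicates.

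**Figure D4:**
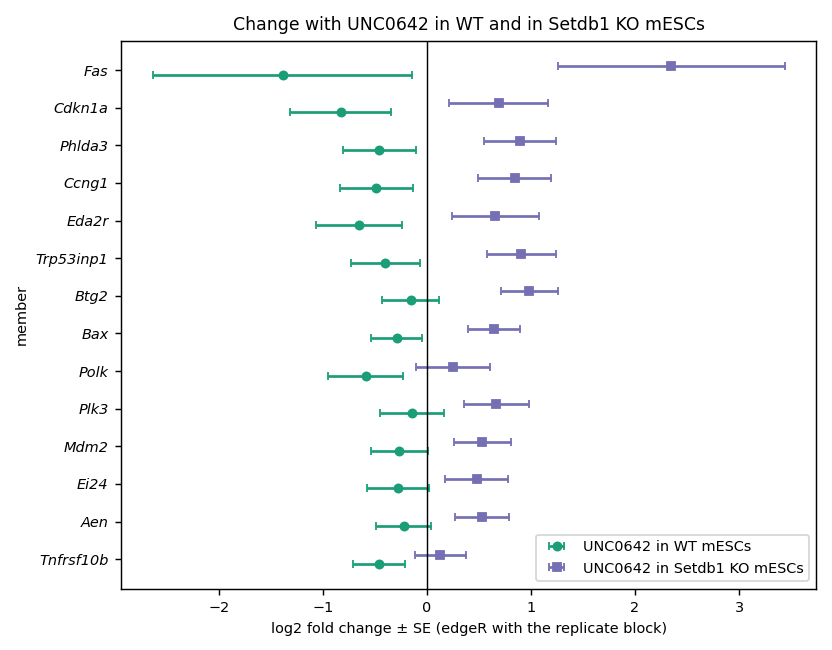
Log2 fold change ± SE from edgeR with the replicate block, for UNC0642 in WT mESCs (circles) and in Setdb1 KO mESCs (squares), for the 14 members chosen because they were lower in both WT replicates and higher in both KO replicates. The 14 squares lie at positive and the 14 circles at negative values, which follows from this choice. For no gene was the difference between square and circle called.

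The members also differed in how much the replicates disagreed. Bax, Bbc3, Gdf15, Phlda3, Plk3 and Sesn2 were higher in replicate 2 of all 4 conditions, and Apaf1, Bcl2l11, Plk2, Pmaip1, Sesn1 and Trp53inp1 in replicate 1. These 12 of 36 members (33.3%) compare with 49.4% of all genes that kept 1 replicate order in the 4 conditions. A replicate effect was called in 11 members (30.6%) and in 34.2% of genes. Other measures were larger among the members. Their median absolute log2 difference between replicates was 0.793, against 0.670 for all genes. Correlations of the replicate differences between conditions were 0.403 to 0.893 across the members and 0.285 to 0.663 across all genes, higher for the members in all 6 pairs.

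The other genes of the pathway were taken from lists of known regulators, targets and death genes. Their calls are from the fit with the block, where 15.7% of all genes were called in the combined condition over WT. Of 40 other p53 targets tested, Rap2b, a small GTPase, and Zfp365 were called higher with the block in the combined condition over WT, and Gls2, a mitochondrial glutaminase, and Tgfa, a growth factor, were called lower. Rap2b had 50.2 and 37.8 CPM in WT and 125 and 112 in the combined condition. The median log2 fold change of this list was 0.26 with the block, against 0.45 for the 36 members and -0.08 for all genes. Without the block the medians were 0.35, 0.79 and -0.06. Of 23 regulators of p53 only Ppp1r13l, which encodes the inhibitor iASPP, was called, and it was lower (5.05 and 18.4 CPM in WT, 2.70 and 4.38 in the combined condition).

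In the same comparison with the block, 3 of 15 other BCL2 family genes were lower (Bcl2l2, Bnip3 and Bok) and none was higher. Bnip3, a mitophagy receptor, had 523 and 139 CPM in WT and 39.2 and 55.6 in the combined condition. Among other caspases and executioners, the genes called included Casp14, a caspase of skin differentiation, which was higher, and Aifm1, which was lower, and 1 of the 16 other death receptor and necroptosis genes was higher (Cflar). Of 10 pyroptosis genes, Nlrp1a, an inflammasome sensor, was called higher in Setdb1 KO and in the combined condition with and without the block, at 12.7 and 12.3 CPM in WT, 67.0 and 83.1 in Setdb1 KO and 98.7 and 70.3 in the combined condition, and Aim2 and Naip2 were called higher with the block in the combined condition over WT. Aim2, a sensor of cytosolic DNA, had 42.6 and 16.5 CPM in WT, 78.1 and 50.04 with UNC0642, 48.0 and 23.4 in Setdb1 KO and 62.8 and 70.6 in the combined condition. With the block its log2 difference from WT was 1.21 ± 0.357 with UNC0642 alone, which was not called (adjusted p = 0.355 in edgeR), and 1.37 ± 0.363 in the combined condition (adjusted p = 0.0357). Naip2 was below 1 CPM in all 8 libraries. Of 21 genes of the ATF4 stress response, Atf3 was called higher with the block in both KO comparisons with WT and Eif2ak3 and Eif2ak4 lower in the combined one. Atf3, a stress-induced transcription factor, had 0.697 and 1.55 CPM in WT, 20.2 and 31.8 in Setdb1 KO and 5.50 and 88.6 in the combined condition, and 3.57 and 26.4 with UNC0642 alone. None of the listed genes was called in UNC0642-treated mESCs over WT, or between the KO conditions. Over UNC0642-treated mESCs and with the block, the genes called higher in the combined condition included the p53 relative Trp73 and Ptpn14, Rap2b, Zfp365, Casp14 and Nlrp1a, and Tgfa was called lower.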

How the data were processed

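Poly(A) RNA-seq covered 4 conditions with 2 replicates each, grouped by the sample labels. The authors trimmed reads with Trim Galore 0.3.7, mapped them to GRCm38 with TopHat and counted them with TEtranscripts, which can share a read among several positions. The deposited values are raw counts of 24062 genes and 1153 transposable element subfamilies. TEtranscripts was run with default parameters, and the annotation version and the strand setting of that default are not given in the sources used here.

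Low features were removed with filterByExpr (at least 10 counts, total of at least 15), leaving 15313 genes and 932 subfamilies in libraries of 11702590 to 26807807 counts. TMM factors (0.810 to 1.20) were computed over both, and edgeR 4.0.16 (R 4.3.3) fitted a quasi-likelihood model to all 8 libraries with 1 coefficient per condition. CPM use these factors. The study gives 2 biological replicates and no pairing in culture, and p-values measure the spread between these libraries only. Same-numbered replicates deviated together (correlations across genes of 0.285 to 0.663 in 6 pairs of conditions), so the fit with the replicate block is also given. A replicate deviation shared by the numbers and a difference between batches of culture cannot be told apart. DESeq2 1.42.0 and the settings of the closing section were alternatives. The members, the lists of other pathway genes and the tests were chosen with earlier results of these data known. A result of the pathway lists is not reported here. The genes named with tests are Trp53, all called members and the 12 others with the smallest unadjusted p against WT without the block, with values in every library. Genes were placed on GENCODE M21 (36 of 37 members; Ddit3 has overlapping models), and promoter windows came from RefSeq (GRCm38.p6). Figures were drawn with matplotlib 3.10.9.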

Additional observations from a re-analysis of the deposited data

Results flagged for a closer look

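With UNC0642, 14 members were lower in both WT replicates and higher in both Setdb1 KO replicates. The log2 difference between its effect in Setdb1 KO and its effect in WT mESCs was, in edgeR without the block, Aen 0.80, Bax 1.06, Btg2 1.17, Ccng1 1.27, Cdkn1a 1.54, Eda2r 1.26, Ei24 0.71, Mdm2 0.77, Phlda3 1.76, Plk3 0.57, Polk 0.87, Tnfrsf10b 0.60 and Trp53inp1 1.32. None of these differences was called (adjusted p = 1.00 for each, with and without the block). Among the 14, the unadjusted p with the block was lowest for Btg2 (0.0177), Trp53inp1 (0.0220), Phlda3 (0.0242), Ccng1 (0.0262) and Bax (0.0263). The 14 were chosen by the signs of these same differences in the same libraries, so positive values follow from the choice. For the same reason the unadjusted p-values are no independent test of the pattern.

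Fas had the largest such difference (3.76), from 2 to 33 counts per library, and a fitted value at such counts depends on the prior count and is no bound.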

How the results depend on the processing

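The members called under the combined treatment against WT numbered 2 among 554 genes called in edgeR without the block. With the replicate block they numbered 11 among 2407. DESeq2 on all 8 libraries called 4 (Btg2, Casp8, Plk2 and Trp53inp1) among 1304. On only the 4 libraries compared, DESeq2 called 4 among 1052 and edgeR 1 among 747. RLE normalization gave 1 among 553, total counts normalization 0 among 380 and genes only 1 among 518. At a fold above 10 there were 0 among 430, and with no expression filter 2 (Casp8 and Plk2) among 710. Without single libraries both the members called and the genes called were fewer. Against UNC0642-treated mESCs the members called numbered 0 without the block, among 139 genes called, and 10 with it, among 580. There were 7 in either DESeq2 fit (461 and 429 genes) and 2 with no expression filter (Casp8 and Plk2, 223 genes). In Setdb1 KO against WT they numbered 0 without the block (136 genes) and 1 (Casp8) with it (509 genes) or in either DESeq2 fit (445 and 360). The counts for UNC0642 against WT, for the combined treatment against Setdb1 KO and for the interaction stayed at 0 in all settings run. In combination with the block, which was added after seeing the data, the counts without single libraries ran from 0 to 3 for Setdb1 KO against WT, from 1 to 12 for the combined treatment against WT and from 1 to 11 against UNC0642-treated mESCs. Over all genes, DESeq2 on all 8 libraries called 1304 for the combined treatment against WT and 461 for it against UNC0642-treated mESCs. For Setdb1 KO against WT it called 445. Total counts normalization moved the median of all genes by -0.16 (log2) in the combined treatment against WT. The lone library left in a condition is assumed to vary like the others. The causes were not tested.

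Of 75 fold changes of single members against WT, 33 changed sign in a setting, 40 times when a library was left out and 1 time otherwise (Ddit4 with the block in UNC0642 against WT, -0.13). The values without single libraries follow for these genes. For UNC0642 against WT they ran, from lowest to highest, Trp53 -0.83 to 0.52, Mdm2 -0.56 to 0.049, Ccng1 -1.31 to 0.24, Trp53inp1 -1.28 to 0.55, Phlda3 -1.31 to 0.53, Sesn2 -0.61 to 1.96, Plk2 -0.97 to 0.31, Eda2r -1.49 to 0.23, Ripk3 -0.18 to 0.57, Mlkl -1.68 to 0.34, Fas -2.46 to 0.50, Ei24 -0.80 to 0.11, Ddit3 -0.24 to 1.97, Pmaip1 -0.96 to 0.34 and Ddit4 -0.21 to 0.65. For Setdb1 KO against WT they ran, from lowest to highest, Trp53 -0.68 to 0.64, Phlda3 -0.40 to 1.69, Ripk1 -0.034 to 1.48, Zmat3 -0.26 to 0.036, Mlkl -0.49 to 1.18, Perp -0.15 to 0.71, Fas -1.80 to 1.18, Ei24 -0.16 to 0.51, Tnfrsf10b -0.026 to 0.39, Pmaip1 -0.11 to 1.36 and Ddit4 -0.71 to 1.65. For the combined treatment against WT they ran, from lowest to highest, Trp53 -0.72 to 0.63, Phlda3 -0.015 to 2.83, Zmat3 -0.35 to 0.00056, Gadd45a -0.15 to 0.99, Ddit3 -0.52 to 1.76, Pmaip1 -0.13 to 1.03 and Ddit4 -1.01 to 1.94. None of these genes was called in that comparison in edgeR without the block. Counting depth limits Fas, Mlkl, Gdf15 and Casp1, with libraries at or near the floor of 3 counts.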
